A study of Homo sapiens with 9 samples.

Results

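The genes described here are the transcription factors of the integrated stress response and the genes that feed back on it: ATF4, ATF5, CEBPB, CEBPG, DDIT3, ATF3, JDP2, TRIB3, NUPR1 and CHAC1. They were taken by symbol from the gene table, which held 70116 gene IDs, and each of the 10 symbols matched 1 ID. All 10 had enough reads to be among the 19408 genes tested. RNA with a poly(A) tail had been sequenced from U2OS, a human osteosarcoma cell line, in 9 libraries. The groups were PERK KO cells on palbociclib for 4 days, wild-type cells on palbociclib for 4 days and wild-type cells on vehicle, with 3 libraries each, numbered as sets 1 to 3. Palbociclib is an inhibitor of the cell cycle kinases CDK4 and CDK6, and the knockout was made with CRISPR/Cas9. Knockout cells on vehicle were not analysed here, so a difference between knockout and wild type was measured on the drug only. The labels do not say whether the knockout is 1 clone, or whether sets are separate cultures, and the spread behind each p-value is that between these libraries only and may be technical.

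The integrated stress response starts when a kinase phosphorylates the translation factor eIF2α. PERK is the kinase that senses unfolded protein in the endoplasmic reticulum, and the others sense haem shortage or mitochondrial stress, viral RNA and lack of amino acids. Phosphorylated eIF2α slows translation of most mRNAs but favours a few that carry upstream open reading frames, ATF4 and ATF5 among them. ATF4 is a basic leucine zipper (bZIP) factor that binds DNA with C/EBP partners and turns on genes for amino acid supply, redox balance and, in prolonged stress, cell death. Part of its output acts back on the response. Because ATF4 and ATF5 are controlled largely at translation, their mRNA levels do not measure their proteins.

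ATF4 and its C/EBP partners meet DNA at a composite element known as CARE, in which a C/EBP site is joined to an ATF site. Promoter sequence from RefSeq on GRCh38.p14 was found for 9 of the 10 genes, the exception being NUPR1. The letters TGATGNAA, searched on both strands in the 250 bases before each annotated start, were present in 4 of those 9 genes (CEBPG, ATF3, JDP2 and CHAC1) and in 3.89% of 27305 genes. A gene with several annotated starts counted once. These stretches are shown because they are the members in which the ATF4 element was matched. All 4 lie on the plus strand and end at or before a start annotated in RefSeq. That start can differ from the gene start given with each gene below, which comes from GENCODE. By the GENCODE coordinates the CHAC1, CEBPG and JDP2 stretches lie inside the gene, and the ATF3 stretch lies before it. The match is in capitals and some flanking sequence in lower case.
CHAC1, chr15:40953221-40953470: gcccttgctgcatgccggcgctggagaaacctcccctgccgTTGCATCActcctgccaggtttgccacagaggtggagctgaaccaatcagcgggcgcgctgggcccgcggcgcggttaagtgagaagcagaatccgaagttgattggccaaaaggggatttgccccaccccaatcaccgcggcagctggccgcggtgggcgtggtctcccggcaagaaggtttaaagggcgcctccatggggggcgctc
CEBPG, chr19:33374031-33374112: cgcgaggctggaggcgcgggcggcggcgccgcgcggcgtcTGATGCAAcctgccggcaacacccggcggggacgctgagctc
JDP2, chr14:75427966-75428021: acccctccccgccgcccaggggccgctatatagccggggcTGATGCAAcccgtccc
ATF3, chr1:212565176-212565263: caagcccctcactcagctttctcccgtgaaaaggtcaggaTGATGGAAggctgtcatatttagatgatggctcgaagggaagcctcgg
The CHAC1 match is the reverse complement of the element. CEBPG and JDP2 carried the same 8 letters, and ATF3 differed from them inside the open position. The cyclic AMP element TGACGTCA was matched in none of the 9, against 2.03% of all genes. The AP-1 element TGANTCA was matched in ATF5 and DDIT3, 2 of 9 genes, against 8.06% of all genes. A match of letters describes the sequence only. The genes without a CARE match in this window were ATF4, ATF5, CEBPB, DDIT3 and TRIB3.

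Library totals ran from 33674039 to 42577874 counts. The targeted gene EIF2AK3, which encodes PERK, averaged 18.7 ± 0.97 CPM (counts scaled to library size with TMM factors) in knockout cells on palbociclib, 34.8 ± 2.6 in wild-type cells on palbociclib and 33.1 ± 1.6 in wild-type cells on vehicle (mean ± SD, n = 3 here and below). The remaining EIF2AK3 mRNA says nothing of the protein, which was not measured. In all 9 libraries the sum of 8 haematopoietic markers lay between 0.329 and 0.895 CPM, with CD3E and HBB at 0. The sum of 6 endothelial markers was 9.42 to 10.8 CPM in knockout cells on palbociclib, 9.13 to 9.19 in wild-type cells on palbociclib and 4.10 to 4.79 on vehicle. Its members did not move together. TIE1 averaged 5.18 ± 0.66, 3.51 ± 0.28 and 0.667 ± 0.13 CPM in those groups. CDH5 (at most 0.44 CPM in any library) and KDR (at most 0.165) had lower means in both palbociclib groups than on vehicle. Markers of the line itself, 10 mesenchymal and osteoblast genes, summed to 9234 to 11374 CPM in knockout cells on palbociclib, 9268 to 10673 in wild-type cells on palbociclib and 6024 to 6570 on vehicle. Such a sum follows its most abundant members: in wild-type cells on palbociclib COL1A1 averaged 4133 CPM and COL1A2 2.19 CPM. Between knockout and wild type on palbociclib, 2 of 9 tested were called higher and 2 lower (RUNX2, -0.40, and ALPL, -0.66), against 14.9% and 13.0% of all tested genes. Epithelial markers summed to 21.0 to 23.0 CPM in the knockout, against 32.5 to 33.4 in wild-type cells on palbociclib and 33.3 to 35.0 on vehicle. Of 11 mitochondrially encoded mRNAs, 0 were called by edgeR in any comparison, and 0 had an unadjusted p under 0.05; with the replicate block 4 were called higher and 1 lower with palbociclib in wild-type cells. In bulk libraries, fewer cells with a transcript and less of it per cell cannot be told apart.

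Knockout cells on palbociclib had less mRNA of most of these factors than wild-type cells on the drug. A gene was called at an edgeR quasi-likelihood p, adjusted by Benjamini-Hochberg over all 19408 genes, under 0.05. That fit was by group only and did not pair libraries by set, which the replicate block does. Of the 10 genes, 8 were called lower and 0 higher (0 higher also at an unadjusted p under 0.05 and by DESeq2), while 27.9% of all tested genes were called, 13.0% lower and 14.9% higher. The median log2 fold change of the 10 was -0.31, against 0.01 over all tested genes. In 8 of the 10 genes every knockout library lay below every wild-type library on palbociclib, a pattern held by 19.5% of all tested genes. CHAC1 and TRIB3 fell to 47.5% and 46.7% of their wild-type levels, and the other 6 called genes fell by 0.17 to 0.40 on the log2 scale. Of all tested genes, 1.81% were called with at least a 2-fold fall.

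Palbociclib in wild-type cells did not move the 10 genes in 1 direction. CHAC1 and NUPR1 were called higher and ATF5 and CEBPG lower, 4 genes in all, against 43.7% of all tested genes called (21.3% higher and 22.3% lower). Their median log2 fold change was -0.10, and that of all tested genes was -0.02. Ranges did not overlap in 6 of the genes, 3 higher on the drug (ATF4, NUPR1 and CHAC1) and 3 lower (ATF5, CEBPG and ATF3); over all genes 24.7% were separated upwards and 26.9% downwards. The share called among the 10 was thus near that of the whole table.

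Set against wild-type cells on vehicle, knockout cells on palbociclib had 8 of the 10 genes called lower and 0 higher (all 10 fold changes were negative), with 51.7% of all tested genes called, 26.0% lower and 25.7% higher. Ranges did not overlap in 8 genes, all lower in the knockout, against 29.7% of all tested genes. The median of the 10 was -0.54 and that of all tested genes -0.01. This contrast holds the drug and the genotype together and shares its libraries with the other comparisons, so its values are given beside theirs and not as separate support. Tested for any difference among the 3 groups, 10 of 10 genes were called, against 59.8% of all tested genes.

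**Figure D1:**
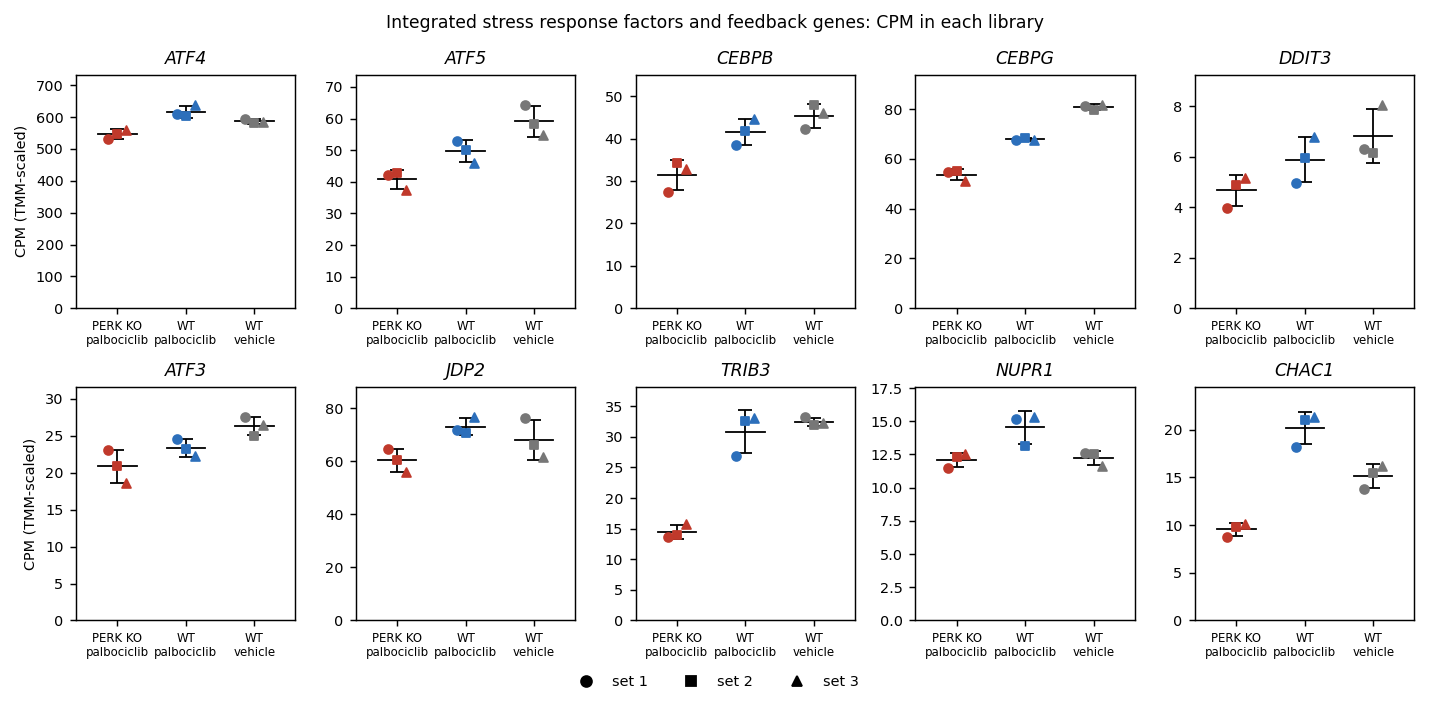
TMM-scaled CPM of each gene (linear axes that start at 0) in every library, with PERK KO cells on palbociclib, wild-type cells on palbociclib and wild-type cells on vehicle from left to right; symbols give the set, and black bars the mean and SD of 3 libraries. TRIB3 and CHAC1 show the widest gap between knockout and wild-type cells, and CEBPG is lowest in the knockout, higher in wild-type cells on palbociclib and highest on vehicle.

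ATF4 was by far the most abundant of the 10 in every library. Per length, as TPM on the summed exons of GENCODE release 29, it stood at 811 ± 30 in knockout cells on palbociclib, 935 ± 12 in wild-type cells on palbociclib and 893 ± 15 on vehicle. CEBPB, ATF5, CEBPG and JDP2 followed in that order of mean TPM in all 3 groups, from 59.9 to 36.1 TPM in the knockout, 80.9 to 44.6 in wild-type cells on palbociclib and 88.9 to 41.8 on vehicle. Library ranges overlapped between CEBPB and ATF5 in the knockout and on vehicle, and between ATF5 and CEBPG in wild-type cells on palbociclib and on vehicle. The order below them differed between groups. In wild-type cells on palbociclib CHAC1 (37.3 ± 2.8 TPM) and TRIB3 (34.2 ± 3.5) overlapped each other and lay above ATF3 (22.0 ± 1.5). In knockout cells ATF3 (19.2 ± 2.0 TPM), CHAC1 (17.4 ± 1.4), TRIB3 (15.6 ± 1.3) and DDIT3 (13.3 ± 1.9) each overlapped the next. On vehicle TRIB3 (36.2 ± 0.51 TPM) lay above CHAC1 (28.3 ± 2.6), which overlapped ATF3 (24.9 ± 0.60). NUPR1 was lowest in every group, at 7.95 ± 0.42 TPM in the knockout, 9.75 ± 0.77 in wild-type cells on palbociclib and 8.27 ± 0.48 on vehicle. The levels and the middle of this order depend on the transcript length assumed. With the median length of coding transcripts, an alternative chosen after seeing the data, ATF4 stood at 367 ± 11 TPM in the knockout, 430 ± 11 in wild-type cells on palbociclib and 408 ± 1.4 on vehicle. ATF4 stayed highest and NUPR1 lowest, but CEBPB went from rank 2 to rank 6 in wild-type cells on palbociclib.

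ATF4 (ENSG00000128272.18, chromosome 22, 39519695 to 39522685, plus strand of GRCh38) is the central activator of the response. Its level was 531, 548 and 561 CPM in knockout sets 1 to 3 on palbociclib, against 610, 603 and 638 CPM in the wild-type sets on palbociclib. The ranges did not overlap, and the knockout was lower by a small step that was called (log2 fold change -0.17 ± 0.046 SE, edgeR adjusted p = 0.00735). Wild-type sets on vehicle had 593, 580 and 586 CPM, all below the drug-treated sets, but the drug difference was not called (0.07, 95% interval -0.02 to 0.17, edgeR adjusted p = 0.212). ATF4 has annotated pseudogenes (ATF4P1 to ATF4P4), and how reads shared with them were assigned is not given in the sources used here.

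ATF5 (chromosome 19, 49928702 to 49933935, plus strand) is a close relative of ATF4 that is likewise translated under eIF2α phosphorylation and is known for the mitochondrial stress response. It had 42.0, 42.8 and 37.4 CPM in the knockout sets, 52.8, 50.1 and 45.9 CPM in the wild-type sets on palbociclib and 64.3, 58.4 and 54.7 CPM on vehicle. The 3 groups did not overlap, and within each group set 3 was lowest. Both steps were called, with a log2 fold change of -0.29 ± 0.069 (adjusted p = 0.00401) for knockout against wild type and of -0.25 ± 0.068 (adjusted p = 0.00483) for palbociclib against vehicle. Without wild-type palbociclib set 3 the drug step missed the threshold (-0.18, adjusted p = 0.0521). Exons of NUP62 and IL4I1 overlap ATF5 on the opposite strand, and the strand setting of the counting is not given in the sources used here. NUP62 averaged 107 CPM in the knockout and 115 CPM in wild-type cells on palbociclib (log2 fold change -0.11, adjusted p = 0.159).

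The C/EBP partners were lower in the knockout as well. CEBPG (chromosome 19, 33373330 to 33382686, plus strand), which lacks a transactivation domain of its own and pairs with ATF4 on amino acid response genes, had 54.7, 55.2 and 51.1 CPM in the knockout sets, 67.8, 68.6 and 67.5 CPM in the wild-type sets on palbociclib and 81.5, 79.6 and 81.7 CPM on vehicle. No range touched another, and among wild-type libraries on palbociclib its coefficient of variation, 0.878%, was the smallest of the 10 genes. Its fold change was -0.34 ± 0.049 (adjusted p = 2.05e-05) for knockout against wild type and -0.25 ± 0.048 (adjusted p = 0.000238) for palbociclib against vehicle. Knockout cells on palbociclib therefore stood 0.59 log2 units below wild-type cells on vehicle (-0.59 ± 0.048, adjusted p = 3.73e-09).

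CEBPB (chromosome 20, 50190734 to 50192689, plus strand), a factor of differentiation, inflammation and the secretory programme of senescent cells, had 27.4, 34.2 and 32.7 CPM in the knockout sets and 38.4, 41.7 and 44.6 CPM in the wild-type sets on palbociclib. The ranges did not overlap and the knockout was called lower (-0.40 ± 0.079, adjusted p = 0.000924). On vehicle the sets had 42.3, 47.9 and 46.0 CPM, overlapping those on palbociclib, and the drug difference was not called (-0.13, adjusted p = 0.199), whereas with the replicate block it was called lower (adjusted p = 0.0346). Genes around CEBPB were shifted the same way in the knockout. The median log2 fold change of the 91 other tested genes that start within 5 Mb was -0.17, and CEBPB stood 0.24 below it (-0.24). CEBPB-AS1, whose exons overlap CEBPB on the opposite strand, averaged 2.04 CPM in the knockout and 1.97 CPM in wild-type cells on palbociclib.

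DDIT3 and ATF3 encode factors that ATF4 induces under stress. DDIT3 (chromosome 12, 57516588 to 57521737, minus strand) encodes CHOP, which links prolonged stress to cell death. It was the least counted of the 10, with 3.95, 4.88 and 5.15 CPM in the knockout sets, 4.95, 5.93 and 6.76 CPM in the wild-type sets on palbociclib and 6.28, 6.14 and 8.04 CPM on vehicle. Wild-type sets on palbociclib overlapped both other groups, while knockout sets lay below all vehicle sets. Set 3 was highest in every group and the knockout was lower than wild type within each set. Without the set as a block the genotype difference on palbociclib was not called (-0.34, 95% interval -0.64 to -0.04, adjusted p = 0.0838), and with the replicate block it was (adjusted p = 0.0128). The drug difference was not called (-0.21 ± 0.14, adjusted p = 0.239), and the difference between knockout cells on palbociclib and wild-type cells on vehicle was (-0.55 ± 0.14, adjusted p = 0.0027). Exons of AC022506.1, a protein-coding gene, overlap DDIT3 on the same strand, and how shared reads were counted is not given in the sources used here. Exons of MARS1 and MBD6 overlap DDIT3 on the opposite strand. MARS1, at 312 CPM in the knockout and 350 CPM in wild-type cells on palbociclib, was also called lower (-0.17, adjusted p = 0.00749), and its part in the DDIT3 counts was not tested.

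ATF3 (chromosome 1, 212565334 to 212620777, plus strand), an early stress factor that mostly represses as a homodimer, had 23.1, 20.9 and 18.6 CPM in the knockout sets, 24.6, 23.2 and 22.2 CPM in the wild-type sets on palbociclib and 27.5, 25 and 26.5 CPM on vehicle. The palbociclib groups overlapped, and both lay below vehicle. Neither step was called (-0.16, adjusted p = 0.132 for knockout against wild type; -0.18, adjusted p = 0.0658 for palbociclib against vehicle), and both were with the replicate block (adjusted p = 0.038 and 0.0163). Relative to genes within 5 Mb the drug difference was -0.04. The knockout on palbociclib was called lower than wild type on vehicle (-0.34 ± 0.076, adjusted p = 0.000897).

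JDP2 (chromosome 14, 75427716 to 75474111, plus strand) is a bZIP repressor that pairs with Jun proteins and with ATF3 and CHOP. It had 64.6, 60.6 and 55.9 CPM in the knockout sets and 71.7, 70.7 and 76.6 CPM in the wild-type sets on palbociclib. These ranges did not overlap and the knockout was called lower (-0.27 ± 0.071, adjusted p = 0.00784). The vehicle sets were wider, at 76.3, 66.3 and 61.7 CPM, and overlapped both other groups. JDP2 was not called between palbociclib and vehicle (0.10, adjusted p = 0.275) but was without vehicle set 1 (0.19, adjusted p = 0.0228). Its call between knockout on palbociclib and wild type on vehicle was marginal (-0.17, adjusted p = 0.0492) and was lost in 12 of 16 alternative fits. The 97 tested genes around JDP2 had a median of 0.21 in the knockout, and relative to them JDP2 stood at -0.48. An annotated antisense gene also overlaps its exons.

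**Figure D2:**
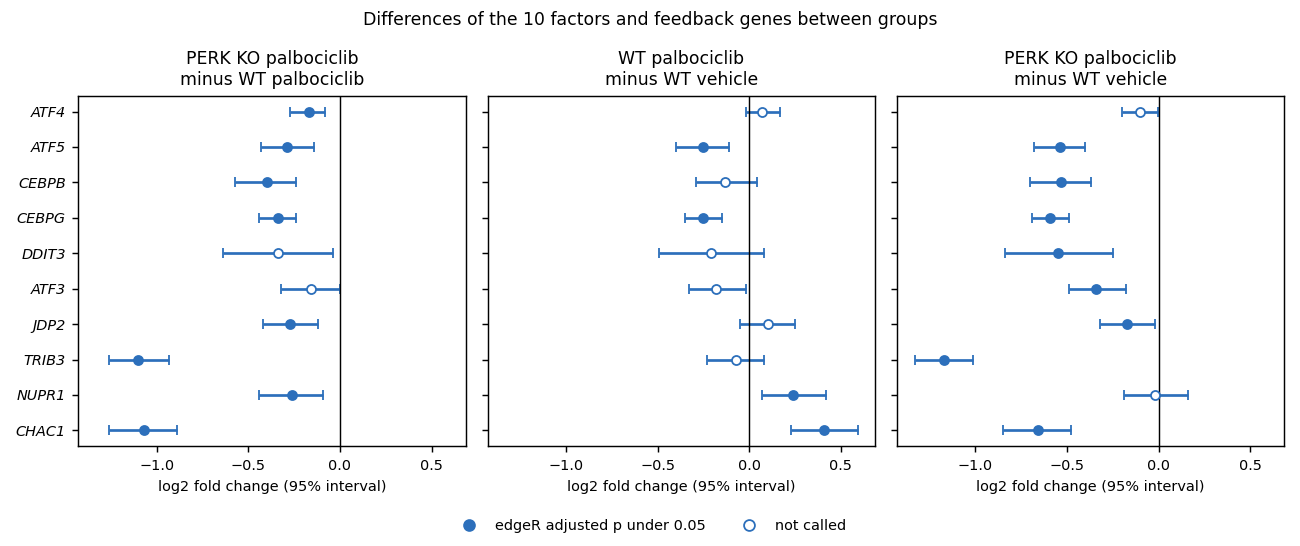
Log2 fold changes with 95% intervals from the edgeR fit for each gene in the 3 comparisons, knockout against wild type on palbociclib at the left; filled points passed an adjusted p of 0.05. All 10 points of the left panel lie below 0, with TRIB3 and CHAC1 near -1, whereas those of the middle panel lie on either side of 0.

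TRIB3 (95% interval of the log2 fold change -1.26 to -0.93) and CHAC1 (-1.26 to -0.89) had the largest genotype differences of the 10, and their intervals overlap too much to rank them. Relative to neighbouring genes CHAC1 stood lower (-1.26) than TRIB3 (-0.52). TRIB3 encodes a pseudokinase induced by ATF4 and CHOP that binds ATF4 and restrains it, and it also binds AKT. The gene lies at chromosome 20, 362835 to 397559, on the plus strand. It had 13.6, 14.0 and 15.7 CPM in the knockout sets, against 26.9, 32.6 and 33.1 CPM in the wild-type sets on palbociclib. Every knockout library was far below every wild-type library (log2 fold change -1.10 ± 0.079, adjusted p = 3.04e-09). On vehicle the sets had 33.2, 31.9 and 32.3 CPM, which overlapped the drug-treated wild type, and the drug difference was not called (-0.07 ± 0.075, adjusted p = 0.461). Its sign turned without wild-type palbociclib set 1, the lowest of its group (0.02, adjusted p = 0.895).

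The chromosome end that holds TRIB3 was itself lower in the knockout. Of the 69 other tested genes that start within 5 Mb of TRIB3, 52 were called lower and 1 higher, and their median log2 fold change was -0.57. The middle part of them ran from -0.73 to -0.43 (quartiles). TRIB3 stood 0.52 below that median (-0.52), and 5 of the 69 had a lower fold change than TRIB3. RBCK1, whose start is 0.045 Mb from that of TRIB3, had a log2 fold change of -0.54 (adjusted p = 6.53e-07). Against wild-type cells on vehicle the TRIB3 difference was -1.17 ± 0.079 (adjusted p = 2.57e-10), or -0.60 beside its neighbours. The part of the shared shift in the TRIB3 result was not tested.

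**Figure D3:**
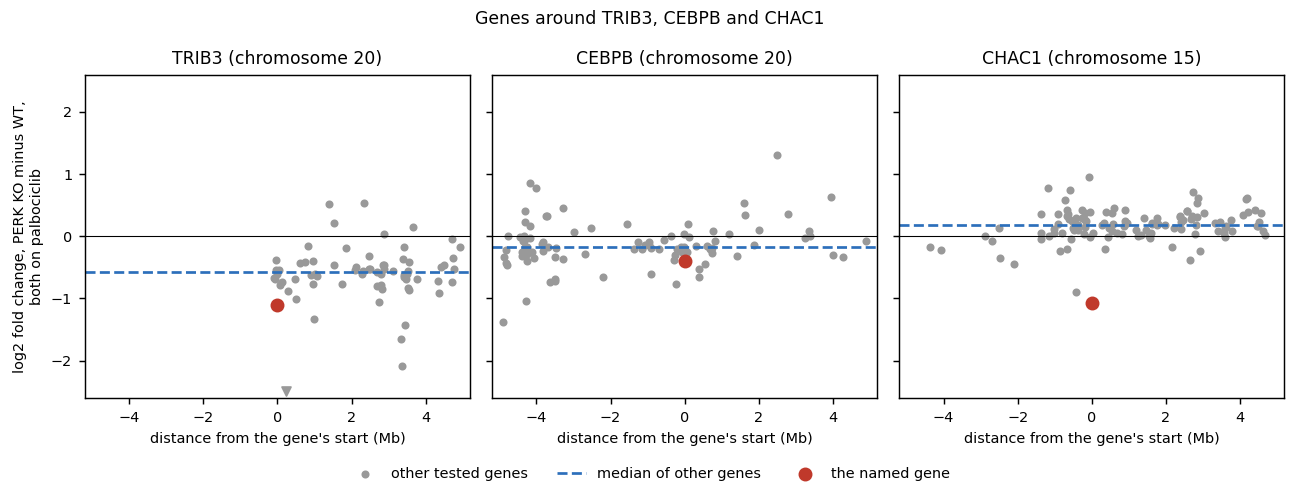
Log2 fold change of knockout against wild type on palbociclib (vertical axis) for every tested gene that starts within 5 Mb of TRIB3, CEBPB or CHAC1, by distance of the starts in Mb; red points are the named genes and dashed lines the medians of the others. 1 neighbour of TRIB3 lies beyond the axis and is drawn as a triangle at its lower edge. TRIB3 sits in a window shifted to -0.57, and CHAC1 in a window at 0.18.

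CHAC1 encodes an enzyme that degrades glutathione and is induced by ATF4 in stress. The gene lies at chromosome 15, 40952962 to 40956519, on the plus strand. It had 8.80, 9.82 and 10.1 CPM in the knockout sets, 18.2, 21.0 and 21.3 CPM in the wild-type sets on palbociclib and 13.8, 15.5 and 16.2 CPM on vehicle. The groups did not overlap, and vehicle lay between the other two. CHAC1 was called higher on palbociclib in wild-type cells (0.41 ± 0.085, adjusted p = 0.000532) and lower in the knockout on the drug (-1.07 ± 0.088, adjusted p = 1.56e-08). Knockout cells on palbociclib held 63.1% of the wild-type level on vehicle (-0.66 ± 0.089, adjusted p = 3.20e-06). Its surroundings were not shifted downwards: the 114 tested genes within 5 Mb had a median of 0.18 in the knockout. Of them 38 were called higher and 1 lower, and 0 had a lower fold change than CHAC1.

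NUPR1 (chromosome 16, 28532708 to 28539174, minus strand) encodes a small chromatin-associated stress protein that is induced by ATF4 and modulates stress transcription. It had 11.5, 12.3 and 12.5 CPM in the knockout sets, 15.2, 13.1 and 15.3 CPM in the wild-type sets on palbociclib and 12.6, 12.5 and 11.6 CPM on vehicle. The drug-treated wild type lay above both other groups, which overlapped each other. NUPR1 was called higher with palbociclib (0.24 ± 0.083, adjusted p = 0.0218) and lower in the knockout on the drug (-0.26 ± 0.083, adjusted p = 0.0222). Knockout cells on palbociclib and wild-type cells on vehicle were not called different (-0.02, 95% interval -0.19 to 0.16, adjusted p = 0.874). The genotype call was lost without knockout set 1 (adjusted p = 0.0895), wild-type palbociclib set 1 (0.0938) or wild-type palbociclib set 3 (0.0589), and the drug call without vehicle set 3 (0.0847), wild-type palbociclib set 1 (0.0879) or wild-type palbociclib set 3 (0.0536). The 177 tested genes around NUPR1 had a median of 0.26 in the knockout, and relative to it NUPR1 stood at -0.52.

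The levels were also set against ATF4, itself lower in the knockout, within each library. For every 100 ATF4 counts, TRIB3 had 2.63 ± 0.14 counts in the knockout, 5.00 ± 0.52 in wild-type cells on palbociclib and 5.54 ± 0.058 on vehicle. CHAC1 had 1.75 ± 0.082 counts per 100 ATF4 counts in the knockout, 3.27 ± 0.26 in wild-type cells on palbociclib and 2.59 ± 0.23 on vehicle. CEBPG had 10.3, 10.1 and 9.10 counts per 100 ATF4 counts in the knockout sets and 11.1, 11.4 and 10.6 in the wild-type sets on palbociclib, and CEBPB had 5.15, 6.24 and 5.82 against 6.29, 6.91 and 6.99. Between these groups the ranges of the ratio did not overlap for TRIB3, CHAC1, CEBPG and CEBPB and overlapped for ATF5, DDIT3, ATF3, JDP2 and NUPR1. JDP2 stood at 11.1 ± 1.1 in the knockout, 11.8 ± 0.16 in wild-type cells on palbociclib and 11.6 ± 1.2 on vehicle, and ATF3 at 3.83 ± 0.52, 3.78 ± 0.27 and 4.49 ± 0.17 in the same groups. These ratios are a description, and they carry no test.

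The kinases, phosphatase subunits and eIF2B subunits upstream of ATF4 moved in both directions. In knockout against wild-type cells on palbociclib, 2 of 12 were called higher and 3 lower, with a median of 0.00. The 3 lower include EIF2AK3, the targeted gene itself (-0.89, edgeR adjusted p = 5.98e-09). Of all tested genes 14.9% were called higher and 13.0% lower. EIF2B2, a subunit of the exchange factor that phosphorylated eIF2α inhibits, was higher (76.4 ± 2.4 CPM in the knockout, 52.7 ± 1.3 CPM in wild type; 0.54, adjusted p = 7.32e-08), as was EIF2AK1, the haem-regulated kinase (556 ± 7.1 and 459 ± 11 CPM; 0.28, adjusted p = 9.79e-05). PPP1R15A, the stress-induced phosphatase subunit GADD34 and itself an ATF4 target, was lower in the knockout (38.6 ± 1.6 and 45.1 ± 1.8 CPM; -0.22, adjusted p = 0.0239) and was called higher with palbociclib in wild type (0.32, adjusted p = 0.00137). Its constitutive relative PPP1R15B was lower in both comparisons (-0.23, adjusted p = 0.00335, and -0.28, adjusted p = 0.000236). With palbociclib in wild-type cells 2 of the 12 were called higher and 6 lower, with a median of -0.09, against 21.3% and 22.3% of all tested genes.

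Effector genes of ATF4 were mostly lower in the knockout. Of 12 tested enzymes of amino acid and one-carbon metabolism 8 were called lower and 2 higher (median -0.31), of 9 amino acid transporters 7 lower and 0 higher (median -0.34), and of 6 secreted hormones 5 lower and 0 higher (median -0.97). Among transporters and hormones 0 were higher at an unadjusted p under 0.05. Over all tested genes 13.0% were called lower and 14.9% higher, with a median of 0.01. ALDH1L2, a mitochondrial folate enzyme, had 16.4 ± 2.2 CPM in the knockout and 45.2 ± 1.2 CPM in wild-type cells on palbociclib (-1.46, adjusted p = 4.33e-11). CTH, which makes cysteine from cystathionine, had 9.35 ± 0.48 and 20.2 ± 1.9 CPM in those groups (-1.11, adjusted p = 5.92e-09). PYCR1 and CBS went the other way (0.21, adjusted p = 0.00326, and 0.27, adjusted p = 0.0149). Among transporters, SLC6A9 for glycine (-0.73, adjusted p = 7.03e-08) and SLC7A5 for large neutral amino acids (-0.55, adjusted p = 7.22e-07) were lowest, and among hormones INHBE (-2.29) and FGF21 (-2.11), both called.

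A mixed list of 9 tested growth, death and redox targets had 3 called lower and 0 higher in the knockout (median -0.20), against 13.0% and 14.9% of all tested genes. NARS1, the asparaginyl-tRNA synthetase, fell by 0.44 on the log2 scale (adjusted p = 3.49e-07) and XPOT, the tRNA exporter, by 0.22 (adjusted p = 0.000967). PCK2 and SESN2, in these effector lists, were listed at 0 in all 9 libraries and have no value here.

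With palbociclib in wild-type cells the same effector lists had few genes called lower. Higher and lower calls numbered 4 and 0 of 12 enzymes (median 0.09), 2 and 0 of 9 transporters (median 0.05), 2 and 0 of 6 hormones (median 0.33) and 6 and 1 of 9 growth, death and redox genes (median 0.31), against 21.3% called higher, 22.3% called lower and a median of -0.02 over all tested genes. At an unadjusted p under 0.05, 1 enzyme, 1 transporter and 0 hormones were lower. ALDH1L2 (0.77, adjusted p = 9.46e-08), CTH (0.44, adjusted p = 0.000169), SLC6A9 (0.19, adjusted p = 0.0223), SLC1A4 (0.19, adjusted p = 0.00429), ADM2 (0.29, adjusted p = 0.00171) and DDIT4 (1.04, adjusted p = 0.018) were called higher. Like CHAC1, ALDH1L2 and CTH stood lower in knockout cells on palbociclib and higher in wild-type cells on palbociclib than in wild-type cells on vehicle. Their fold changes in knockout on palbociclib against wild type on vehicle were -0.70 and -0.66.

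**Figure D4:**
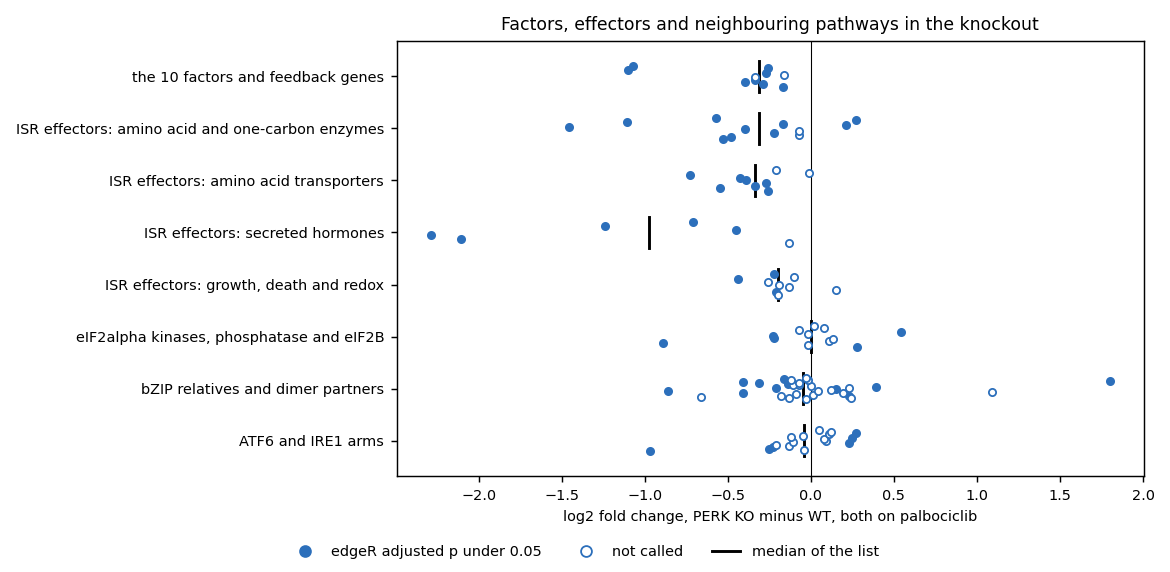
Log2 fold change of knockout against wild type on palbociclib for each tested gene of the 10 factors and feedback genes and of 7 lists beside them; filled points passed an adjusted p of 0.05 and black bars are medians. The factors, enzymes, transporters and hormones have medians from -0.31 to -0.97, and the upstream, bZIP and ATF6 and IRE1 lists have medians near 0.

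Among 30 tested bZIP relatives and dimer partners, 4 were called higher and 7 lower in the knockout (median -0.05), against 14.9% and 13.0% of all tested genes. MAFF, a small Maf protein without a transactivation domain, had 8.80 ± 0.49 CPM in the knockout and 15.9 ± 1.1 CPM in wild-type cells on palbociclib (-0.86, adjusted p = 1.52e-07), and it was called higher with the drug in wild-type cells (0.37, adjusted p = 0.000957). JUND, a partner of JDP2 in AP-1 dimers, was lower in the knockout (-0.41, adjusted p = 1.09e-05). HLF, at the low level of 1.63 ± 0.36 CPM in the knockout and 0.471 ± 0.083 CPM in wild type, was higher (1.80, adjusted p = 1.65e-05). With palbociclib in wild-type cells 12 of the 30 were called higher and 8 lower (median 0.03), against 21.3% and 22.3% of all tested genes. MAF rose most among those named here (0.75, adjusted p = 1.46e-05). HLF, higher in the knockout, was lower with the drug in wild-type cells (-1.16, adjusted p = 0.0015), and ATF1 fell by 0.61 (adjusted p = 1.89e-07).

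The ATF6 and IRE1 arms, which answer unfolded protein beside PERK, did not share the shift as a list. Of 17 tested genes of these arms, 3 were called higher and 3 lower in the knockout (median -0.04), and 5 higher and 1 lower with palbociclib in wild type (median 0.12). Over all tested genes 14.9% were called higher and 13.0% lower in the knockout, and 21.3% and 22.3% with palbociclib. ATF6 itself had 57.5 ± 2.0 CPM in the knockout and 113 ± 5.5 CPM in wild-type cells on palbociclib (-0.97, adjusted p = 2.10e-11), and XBP1 was lower by a smaller step (-0.25, adjusted p = 0.00045). Of 8 tested immediate early and heat shock genes, which can respond to handling, 1 was called higher and 3 lower in the knockout (median -0.33). EGR1 (-0.36, adjusted p = 0.0129) and NR4A1 (-0.65, adjusted p = 0.0103) were among the lower ones. IER3, HSPA1A and HSPA1B, also in this list, were listed at 0 in all 9 libraries. With palbociclib in wild-type cells 3 of the 8 were called higher and 1 lower (median 0.02), EGR1 having 59.6 ± 8.4 CPM on palbociclib and 25.6 ± 2.1 CPM on vehicle (1.22, adjusted p = 7.20e-07). ATF3 is also an immediate early gene, and the part of handling in its level, and in the drug differences of the other genes, was not tested.

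Paralogs of the feedback genes were measured beside them. Of the 3 tested, 0 were called in the knockout by edgeR or by DESeq2, and 1 had an unadjusted p under 0.05. Among all tested genes 27.9% were called by edgeR. TRIB1 had 26.3 ± 1.6 CPM in the knockout and 29.3 ± 1.4 CPM in wild-type cells on palbociclib (-0.16, unadjusted p = 0.0285, adjusted p = 0.0866), and was called with the replicate block (adjusted p = 0.0334). TRIB2 had 55.6 ± 7.2 and 61.8 ± 9.4 CPM in the same groups (-0.16, 95% interval -0.75 to 0.44, adjusted p = 0.706). With palbociclib in wild-type cells, TRIB1 was called higher (0.43, adjusted p = 3.74e-05) and CHAC2, the constitutive relative of CHAC1, lower (-0.48, adjusted p = 3.21e-05). NUPR2 had 1 count over all 9 libraries and was not tested.

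Within groups, sets left a trace in 3 of the 10 genes. In a model with group and set, ATF5 (adjusted p = 0.0139), CEBPB (adjusted p = 0.0114) and DDIT3 (adjusted p = 0.0384) differed between sets, as did 8.07% of all tested genes. Set 3 was lowest for ATF5 and highest for DDIT3 in each group, and set 1 was lowest for CEBPB.

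Genes with a pattern like TRIB3 over the 9 libraries were looked for among 14594 genes with a mean of at least 1 CPM, by Pearson correlation of log2 CPM. The 5 closest were MLPH (0.995), ZNF793 (0.992), RPL6 (0.991), TAF11 (0.988) and IER2 (0.988). MLPH was at a low level, with means of 0.194 CPM in the knockout, 1.72 CPM in wild-type cells on palbociclib and 2.11 CPM on vehicle. Those closest to ATF4 were ABCC10 (0.983), NLRP1 (0.982), RBCK1 (0.976), a gene without a symbol (0.969) and ALDOC (0.969). Libraries of 3 groups shape these values, so they describe the likeness and carry no test. RBCK1, close to ATF4 by pattern, is the neighbour of TRIB3 named above and had 64.0 CPM in the knockout, 93.3 CPM in wild-type cells on palbociclib and 79.9 CPM on vehicle. Among the 10 genes, the closest pairs were ATF5 with CEBPG (0.946) and ATF4 with CHAC1 (0.937), and the least alike were ATF3 and NUPR1 (-0.0583).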

How the data were processed

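The authors deposited a table of unnormalized read counts, with a column of whole numbers for each library and no pooling. Per the labels' protocols, poly-T beads captured the mRNA and random hexamers primed its cDNA. The submitters' processing notes name STAR 2.7.9a, Trim Galore, FastQC, CASAVA and DESeq2, and the build hg38, without their roles. Which program counted the reads, with which annotation and strand setting, is not given in the sources used here.

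Of 70116 IDs, 62700 had a symbol and 58261 a GENCODE release 29 position (GRCh38). All 9 libraries entered 1 edgeR 4.0.16 quasi-likelihood fit by group (R 4.3.3 with limma 3.58.1; tables with Python 3.11.15 and figures with matplotlib 3.10.9), with TMM factors of 0.977 to 1.01, robust fitting and the default low-count filter, which left 19408 genes with 99.9149% of counts. The biological coefficient of variation was 5.99% with 6 residual degrees of freedom. Log2 fold changes are given with SE, and 95% intervals are not adjusted for many tests. The code was tested on simulated data. Correlations used log2 CPM with a prior count of 2. TPM and promoter matches were computed from GENCODE lengths and RefSeq windows of 250 bases before the start.

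The 10 genes, and the 14 lists of 159 entries beside them, were chosen with earlier results of these data known. From each list the text could name up to 2 called genes that rose and 2 that fell most per comparison, at a mean of at least 1 CPM. Also named were EIF2AK3, the paralogs and some list genes at or near 0. Alternatives were RLE factors, DESeq2 1.42.0, limma-voom, no filter, at least 1 CPM in 3 libraries, only the 6 libraries compared, a replicate block, each library left out, neighbours within 5 Mb and, for TPM, another length. Set numbers are shared between groups. In the 12932 genes whose mean log2 CPM was above 1, deviations from group means correlated at 0.176 to 0.541 in all 9 same-number pairs and at -0.401 to 0.0714 in the others; over all tested genes 6 of 9 passed 0.1. The numbers were taken to pair the libraries. The main fit was by group only, so its calls, SE and intervals leave this pairing out. It entered only in the replicate block and in the model with group and set.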

Additional observations from a re-analysis of the deposited data

How the results depend on the processing

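Of 510 recomputed fold changes of the 10 genes, 463 kept their direction and side of the threshold, or moved by less than the spread between replicates. Pairing the libraries by set as a replicate block called 10 genes lower in the knockout on palbociclib (8 without it), 6 with palbociclib in wild type (4 without it) and 9 in knockout on palbociclib against wild type on vehicle (8 without it, ATF4 being added at an adjusted p of 0.0167). The block also called more genes over the whole table in each of these comparisons, so the rise in calls was not confined to the 10 genes. With 1 library left out, the counts among the 10 genes were 7 to 8, 2 to 5 and 7 to 8 in those comparisons and 9 to 10 for any difference. Counts over the whole table also changed with the library left out. The lowest drug count, 2, came without wild-type palbociclib set 3. The small TRIB3 drug difference ran from -0.11 to 0.02 with 1 library left out, turning to 0.02 (adjusted p = 0.895) without wild-type palbociclib set 1, and that of NUPR1 between knockout on palbociclib and wild type on vehicle from -0.06 to 0.02, at 0.02 (adjusted p = 0.902) without knockout set 1. DDIT3 was also called in the knockout with no low-count filter (adjusted p = 0.037) and without wild-type palbociclib set 1 (0.0372), and ATF3 without knockout set 1 (0.0331). The ATF3 drug difference was called without knockout set 1 (0.0475) or knockout set 3 (0.0438), and ATF4 between knockout on palbociclib and wild type on vehicle with limma-voom (0.0466). The cause was not tested. Relative to neighbours within 5 Mb, the drug difference was -0.04 for ATF3 (-0.18 without this step) and -0.17 for CEBPG (-0.25), the ATF3 difference between knockout on palbociclib and wild type on vehicle was -0.21, that of JDP2 -0.46, and the NUPR1 drug difference 0.39. DDIT3 was the least counted gene, at 3.95 to 8.04 CPM, with a standard error of 0.14; depth as a limit on its call was not tested.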
